A study of Homo sapiens with 12 samples.

Results

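The transcripts of the epidermal growth factor (EGF) receptor family were examined in Ewing sarcoma cells that carry a conditional knockout of RRM1, the large subunit of ribonucleotide reductase. The group was chosen by gene symbol and holds 10 genes: the ligands HBEGF, AREG, EREG, TGFA and NRG1, the receptors EGFR, ERBB2 and ERBB3, and the feedback inhibitors ERRFI1 and LRIG1. Of these, 7 had a row in the deposited table of read counts, which lists 20771 genes in 12 RNA-seq libraries. AREG, EREG and EGFR had no row under their symbol or their Ensembl gene identifier and are reported as not detected. The smallest sum over the 12 libraries of any listed gene was 21 counts, and whether genes with few counts were left out of the table is not given in the sources used here, so a gene without a row may have had some counts. The other 7 genes all passed the filter on low counts and were tested together with 16515 genes in all.

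EW8 and TC71 are established Ewing sarcoma cell lines. In their derivatives, named EW8-RRM1-KO and TC71-RRM1-KO, the endogenous RRM1 gene was targeted with Cas9 and a guide RNA delivered by a lentivirus that also carries hygromycin resistance, and RRM1 protein was supplied by a codon-optimized, doxycycline-inducible transgene. The knockout cells were expanded from single-cell clones, so each line stands for selected clones and not for the parental population. Each line had 3 libraries labelled 0 h, from cells kept in doxycycline, and 3 labelled 48 h, from cells from which doxycycline had been withdrawn for that time, so that the end of the transgene's induction and the withdrawal of the drug itself cannot be told apart. All 4 groups carry the knockout, the transgene and the Cas9 vector, and no library of unmodified cells was analysed here. Nothing in the labels says that replicates came from separate cultures, so the p-values measure only the spread between these libraries.

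EGF family ligands are made as membrane-bound precursors, are released by proteases of the ADAM family and bind receptors that signal as pairs. HBEGF, AREG, EREG and TGFA bind EGFR, and NRG1 binds ERBB3 and ERBB4. Other pairings of ligand and receptor are not listed here. ERBB2 has no known ligand and acts as a partner for the other receptors, and ERBB3 has little kinase activity of its own and depends on its partner. ERRFI1 (also called MIG6) binds the kinase domain of active receptors and blocks it, and LRIG1 is a transmembrane protein that promotes the breakdown of receptors, and both are known as genes that are turned on downstream of the receptors they restrain.

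Total counts per library ranged from 18468485 to 35698991. RRM1, the targeted gene, was at 9.52 ± 0.148 CPM (counts per 1000000 of the scaled library total; SD, n = 3) at 0 h and 70.2 ± 5.54 CPM at 48 h in EW8, and at 16.2 ± 0.981 and 25.4 ± 1.19 CPM in TC71. RRM1 counts thus rose in EW8 when doxycycline was withdrawn (log2 fold change 2.88, adjusted p = 3.37e-27), and the TC71 value was 0.65 (adjusted p = 2.91e-09), below 2-fold. The transgene is described as codon optimized, its sequence was not analysed here and its share of these counts was not tested, so they do not check the labels of time. All 8 Ewing sarcoma markers examined were present, with sums of 1200 to 1260 CPM at 0 h and 1070 to 1100 at 48 h in EW8, and of 1240 to 1270 and 1190 to 1210 in TC71. Single markers moved apart in EW8, from BCL11B, which fell by 1.11 on the log2 scale (adjusted p = 7.48e-19), to NR0B1 at 0.98, just below 2-fold. In TC71 they ranged from BCL11B at -0.946 (adjusted p = 2.98e-15) to NKX2-2 at 0.467 (adjusted p = 9.38e-05). The part of these changes in the results was not tested. Of 5 immune and 4 endothelial markers, 1 each had a row, PTPRC and CDH5, and neither exceeded 0.219 CPM in any library. In these bulk libraries, fewer cells with a transcript and less of it per cell cannot be told apart.

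In EW8, HBEGF, TGFA and ERRFI1 rose in the libraries labelled 48 h. In TC71, HBEGF and ERRFI1 rose. A gene was called upregulated or downregulated when it changed by more than 2-fold with a Benjamini-Hochberg adjusted p below 0.05 in edgeR's quasi-likelihood test. By this rule, 3 of the 7 genes were upregulated in EW8, where 13.9% of all genes tested were upregulated, and 0 were downregulated, against 3.35%. In TC71, 2 of 7 were upregulated, against 3.26% of all genes, and 0 were downregulated, against 0.854%. On adjusted p alone, 6 of 7 passed in EW8 (5 higher and 1 lower), beside 68.6% of all genes, and 5 of 7 in TC71 (all 5 higher), beside 42.1%. The median log2 fold change of the 7 genes was 0.54 in EW8, against 0.03 for all genes tested, and 0.23 in TC71, against 0.00.

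**Figure D1:**
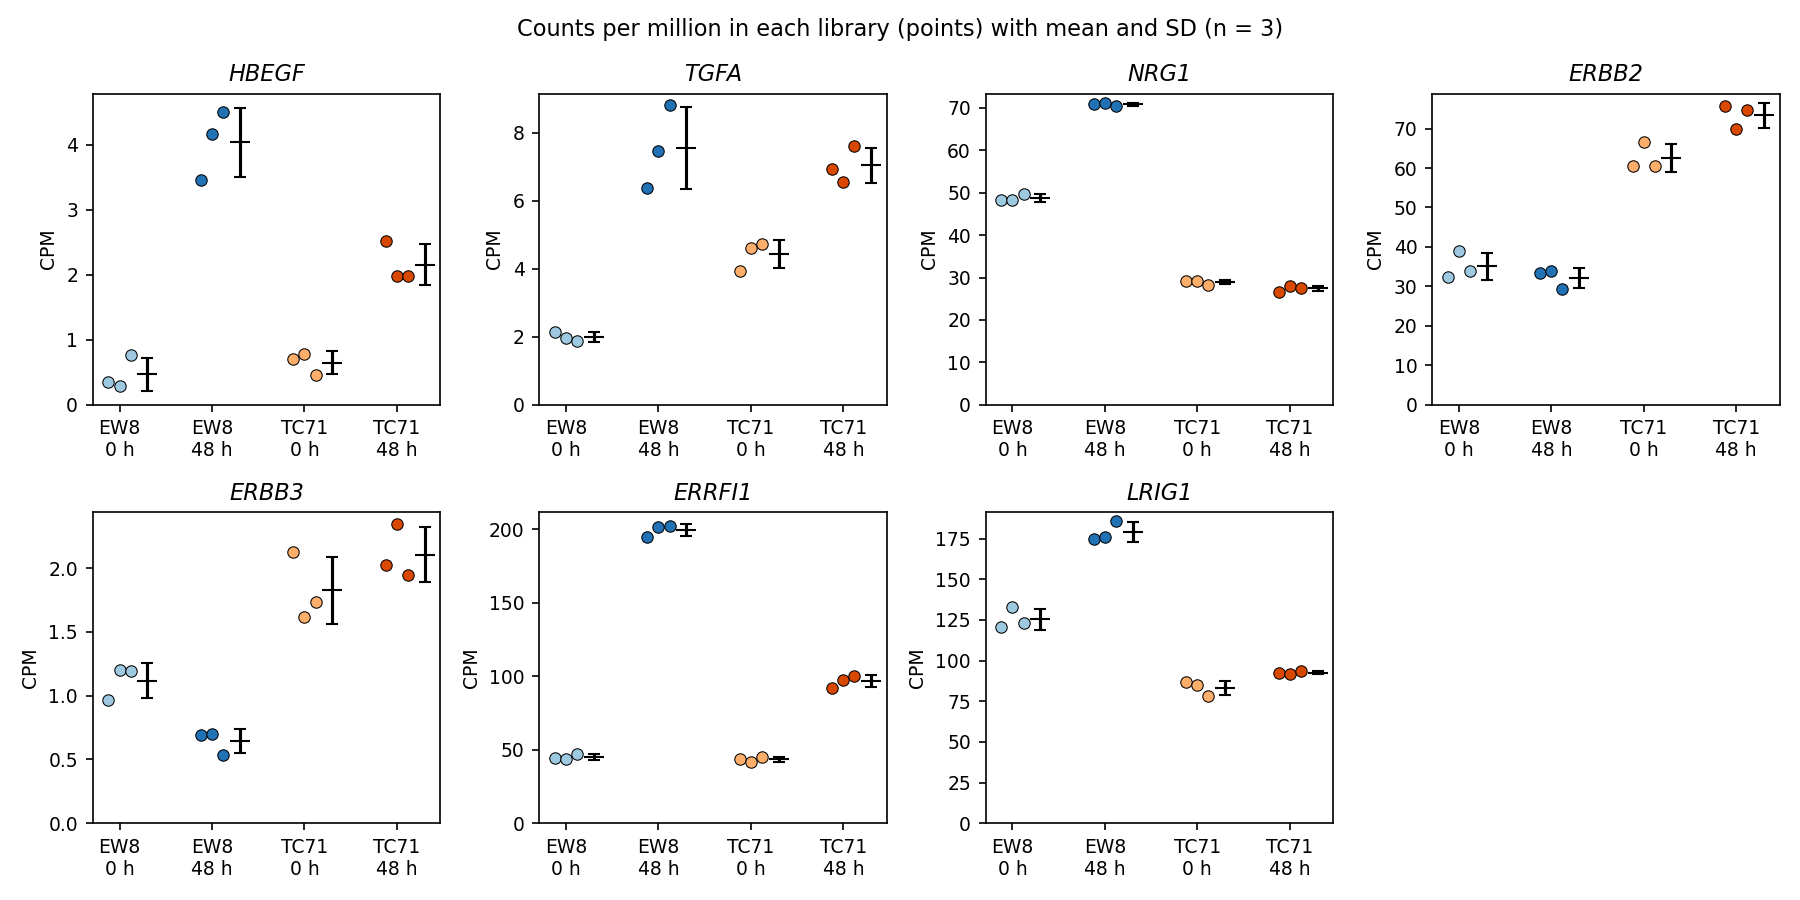
Level of each of the 7 detected genes in every library, in CPM on linear axes that start at 0, with 1 point per library and, beside them, the mean and SD of the 3 libraries of each group (EW8 and TC71, labelled 0 h and 48 h). ERRFI1 and HBEGF at 48 h lie above every 0 h library of the same line, whereas ERBB2 in EW8 overlaps between the times.

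The 250 bases of the reference genome that precede the annotated transcription start are shown for the 3 upregulated genes, because these genes moved together in EW8. A further window, from LRIG1, is shown because it alone among the 9 windows searched held a match to the AP-1 site, the sequence bound by Jun and Fos proteins. The sequences are from RefSeq (GRCh38.p14), 5′ to 3′ along the strand of the gene. Windows of 5 of the 7 detected genes were searched. ERBB3 had no entry, and NRG1 was left out of the search, so its windows are not described here. HBEGF is at chr5:140346604-140346853, TGFA (the more upstream of its 2 listed starts) at chr2:70553827-70554076, ERRFI1 at chr1:8026310-8026559 and LRIG1 (the most downstream of its 4 listed starts) at chr3:66405768-66406017, all on the minus strand. Capitals mark GC boxes (GGGCGG) and CCAAT boxes (CCAAT) in the first 3 sequences and the AP-1 site (TGACTCA or TGAGTCA) in the last, on either strand.
HBEGF: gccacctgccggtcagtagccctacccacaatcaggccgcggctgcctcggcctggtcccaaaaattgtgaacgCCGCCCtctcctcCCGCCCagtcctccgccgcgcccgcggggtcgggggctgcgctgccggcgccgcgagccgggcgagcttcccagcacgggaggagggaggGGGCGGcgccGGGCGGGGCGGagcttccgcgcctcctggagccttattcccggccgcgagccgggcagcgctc
TGFA: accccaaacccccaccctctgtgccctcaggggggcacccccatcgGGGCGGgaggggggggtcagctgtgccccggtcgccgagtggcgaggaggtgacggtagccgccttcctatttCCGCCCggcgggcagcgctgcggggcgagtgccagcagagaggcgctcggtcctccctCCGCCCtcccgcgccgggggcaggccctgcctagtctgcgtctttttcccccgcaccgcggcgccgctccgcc
ERRFI1: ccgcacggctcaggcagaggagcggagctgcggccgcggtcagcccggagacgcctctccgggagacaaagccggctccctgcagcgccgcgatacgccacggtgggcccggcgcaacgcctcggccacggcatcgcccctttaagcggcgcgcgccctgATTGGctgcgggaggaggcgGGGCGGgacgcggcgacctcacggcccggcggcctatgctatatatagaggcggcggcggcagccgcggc
LRIG1: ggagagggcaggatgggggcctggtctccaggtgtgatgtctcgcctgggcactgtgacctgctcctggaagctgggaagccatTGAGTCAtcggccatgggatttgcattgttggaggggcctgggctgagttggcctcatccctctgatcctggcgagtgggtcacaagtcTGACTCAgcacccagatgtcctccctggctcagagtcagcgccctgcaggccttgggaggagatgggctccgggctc

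The HBEGF window was 76.4% G or C and held 5 GC boxes, of which the 2 nearest to the start share a base. The TGFA window was 75.6% G or C and held 3 GC boxes. The ERRFI1 window was 75.2% G or C, with 1 GC box 70 bases and 1 CCAAT box 90 bases before the start. Matches to both motifs are common: among 34943 windows of the same length in the table, 42.5% held a GC box and 32.0% a CCAAT box. GC boxes were in 6 of the 9 windows searched, 3 of them from LRIG1, which was called in neither line. The 2 most upstream LRIG1 windows overlap and share boxes, and the window of the other TGFA start held none of the motifs searched. GC and CCAAT boxes were searched for after the other motifs had been seen.

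An AP-1 site was present in 4.22% of all windows. The LRIG1 window held 2, at 166 and 77 bases before a start that lies far inside the gene, and the other 3 LRIG1 windows held none. None of the 9 windows held a cyclic AMP response element (TGACGTCA), which 1.63% of all windows held, or the letters TATAAA, which 10.8% held. None held the EGR site (GCGGGGGCG or GCGTGGGCG, 5.35% of all windows), the CArG box of serum response factor (1.16%) or the repeat GGAAGGAA (3.06%), whose GGAA core is bound by ETS factors such as EWS-FLI1. A match is a description of the letters, and the lack of one says only that they are not in this window.

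HBEGF (ENSG00000113070), the heparin-binding ligand of EGFR, lies on chr5:140332843-140346603 of hg38, on the minus strand. Its level in EW8 was 0.350, 0.286 and 0.763 CPM in the 3 libraries labelled 0 h, from 8, 5 and 25 counts. At 48 h it was 3.46, 4.16 and 4.50 CPM, from 65, 83 and 92 counts. The groups did not overlap, and the third 0 h library stood above the other two.

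The mean HBEGF level in EW8 was 4.04 ± 0.534 CPM at 48 h and 0.466 ± 0.258 CPM at 0 h (SD, n = 3), a log2 fold change of 2.96 (SE 0.24, adjusted p = 6.22e-13), or 7.78-fold. The size of this rise depended on the third 0 h library, and without it the log2 fold change was 3.60 (adjusted p = 1.46e-11). Its standard error was the largest among the 3 upregulated genes.

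In TC71, HBEGF was at 0.708, 0.785 and 0.455 CPM in the libraries labelled 0 h, from 19, 16 and 11 counts. It was at 2.52, 1.98 and 1.98 CPM in those labelled 48 h, from 66, 53 and 64 counts. Every 48 h library was above every 0 h library. The log2 fold change was 1.73 (SE 0.25, adjusted p = 8.63e-07), or 3.31-fold.

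TGFA (ENSG00000163235; chr2:70447284-70554193, minus strand) encodes transforming growth factor alpha, another ligand of EGFR. In EW8 it was at 2.15, 1.95 and 1.86 CPM in the libraries labelled 0 h and at 6.38, 7.47 and 8.81 CPM in those labelled 48 h. The groups were far apart, and the log2 fold change was 1.94 (SE 0.15, adjusted p = 7.71e-14), or 3.83-fold. The TC71 libraries were at 3.95, 4.61 and 4.72 CPM at 0 h and at 6.95, 6.57 and 7.61 CPM at 48 h. The TC71 groups did not overlap either, but the log2 fold change of 0.68 (SE 0.12, adjusted p = 2.5e-05) corresponds to 1.60-fold and did not reach the fold threshold. TGFA therefore began lower in EW8 and ended at a similar level, with means of 7.55 ± 1.22 CPM in EW8 and 7.04 ± 0.528 CPM in TC71 at 48 h (SD, n = 3), whose ranges overlapped.

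NRG1 (ENSG00000157168) encodes neuregulin 1, a ligand of ERBB3 and ERBB4, and lies on chr8:31639222-32855666, on the plus strand. Per kilobase of the canonical transcript it was above HBEGF and TGFA in every library, but with the length of all merged exons the mean of TGFA was above it in TC71 at 48 h. In EW8 it was at 48.2, 48.4 and 49.8 CPM in the libraries labelled 0 h and at 70.9, 71.2 and 70.5 CPM in those labelled 48 h. The spread within each group was small and the groups did not overlap, with a log2 fold change of 0.54 (SE 0.05, adjusted p = 9.17e-12) that was below the fold threshold. For TC71 the levels were 29.1, 29.1 and 28.3 CPM at 0 h and 26.7, 28.0 and 27.6 CPM at 48 h. Each TC71 library labelled 48 h was below each labelled 0 h, but the log2 fold change of -0.07 did not pass the test (95% confidence interval -0.18 to 0.04, adjusted p = 0.292).

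The detected receptors showed no call in either line. ERBB2 (ENSG00000141736; chr17:39687914-39730426, plus strand), the receptor without a known ligand, was at 32.4, 38.9 and 33.9 CPM at 0 h in EW8 and at 33.4, 33.8 and 29.2 CPM at 48 h. These groups overlapped, and the log2 fold change was -0.12 (95% confidence interval -0.26 to 0.02, adjusted p = 0.131), with a sign that turned to 0.01 when libraries were scaled by total counts alone. Without the first EW8 library labelled 0 h it was -0.20, and the adjusted p ranged from 0.0174 there to 0.922 with total counts alone. In TC71 the 0 h libraries were at 60.6, 66.6 and 60.5 CPM and the 48 h libraries at 75.7, 69.8 and 74.7 CPM. The TC71 groups did not overlap, with a log2 fold change of 0.23 (SE 0.06, adjusted p = 0.00169), far below the fold threshold.

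ERBB3 (ENSG00000065361; chr12:56076799-56103505, plus strand), the receptor of NRG1 with little kinase activity, was far scarcer per kilobase of transcript than ERBB2. In EW8 it was at 0.964, 1.20 and 1.19 CPM in the libraries labelled 0 h, from 22, 21 and 39 counts. It was at 0.691, 0.702 and 0.538 CPM in those labelled 48 h, from 13, 14 and 11 counts. The groups did not overlap, and the log2 fold change of -0.80 (95% confidence interval -1.36 to -0.25, adjusted p = 0.00987) was below the fold threshold. Without the third EW8 library labelled 48 h it no longer passed on adjusted p (0.0523). The TC71 libraries had 2.12, 1.62 and 1.74 CPM at 0 h and 2.02, 2.35 and 1.95 CPM at 48 h. The TC71 groups overlapped, and the log2 fold change was 0.19 (95% confidence interval -0.18 to 0.55, adjusted p = 0.419). HBEGF and ERBB3 had fewer than 100 counts in every library, and their intervals were the widest of the group.

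Of 6 epithelial markers, 3 had a row, KRT18, KRT8 and EPCAM, and their summed level moved with line and time. It was 6.92 to 9.39 CPM in EW8 at 0 h, 21.4 to 23.2 at 48 h, 71.1 to 73.1 in TC71 at 0 h and 98.4 to 111 at 48 h. EPCAM did not exceed 1.60 CPM in any library, and CDH1, KRT5 and KRT19 had no row. Of 6 fibroblast markers, 4 had a row (COL1A1, COL3A1, DCN and LUM), and their sum was 157 to 161 CPM in EW8 at 0 h, 216 to 220 at 48 h, 67.1 to 68.4 in TC71 at 0 h and 93.7 to 98.2 at 48 h. The part of these markers in the levels of the ligands and receptors was not tested.

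ERRFI1 (ENSG00000116285; chr1:8004404-8026309, minus strand), the inhibitor of the receptor kinase domain, rose in both lines with the lowest adjusted p of the group. In EW8 it was at 44.4, 43.5 and 47.4 CPM in the libraries labelled 0 h and at 194.5, 201 and 202 CPM in those labelled 48 h. The lowest 48 h library was far above the highest 0 h library, and the log2 fold change was 2.14 (SE 0.05, adjusted p = 3.95e-28), or 4.41-fold. The TC71 levels were 43.8, 41.4 and 44.8 CPM at 0 h and 92.2, 97.5 and 100.3 CPM at 48 h. The groups were again well apart, with a log2 fold change of 1.16 (SE 0.05, adjusted p = 1.68e-19), or 2.23-fold. The 0 h libraries of the 2 lines overlapped, and every EW8 library labelled 48 h was above every TC71 library labelled 48 h.

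LRIG1 (ENSG00000144749; chr3:66378797-66501263, minus strand), which promotes receptor breakdown, was abundant in all libraries. For EW8 it was at 120.5, 133 and 123 CPM at 0 h and at 175, 176 and 186 CPM at 48 h. The groups did not overlap, and the log2 fold change was 0.52 (SE 0.05, adjusted p = 5.03e-12), below the fold threshold. For TC71 it was at 86.6, 84.9 and 78.0 CPM at 0 h and at 92.6, 91.9 and 93.3 CPM at 48 h. The log2 fold change was 0.16 (SE 0.05, adjusted p = 0.00834), and it no longer passed on adjusted p without the third TC71 library labelled 0 h (0.11, adjusted p = 0.0962).

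The exons of LRIG1 share 37.9% of their bases with SLC25A26, which lies on the opposite strand. The library kit kept strand, but whether the counting used it is not given in the sources used here, so LRIG1 counts are uncertain to that extent. SLC25A26 had a log2 fold change of the opposite sign, -0.35 for EW8 (adjusted p = 1.2e-05) and -0.25 for TC71 (adjusted p = 0.00134). The exons of ERBB2 share 5.53% of their bases with MIEN1 and 1.40% with PGAP3, both on the opposite strand, and those of ERRFI1 share 3.71% with a long noncoding RNA on the opposite strand. The exons of NRG1 and ERBB3 share 0.884% and 0.265% with another gene on the same strand.

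**Figure D2:**
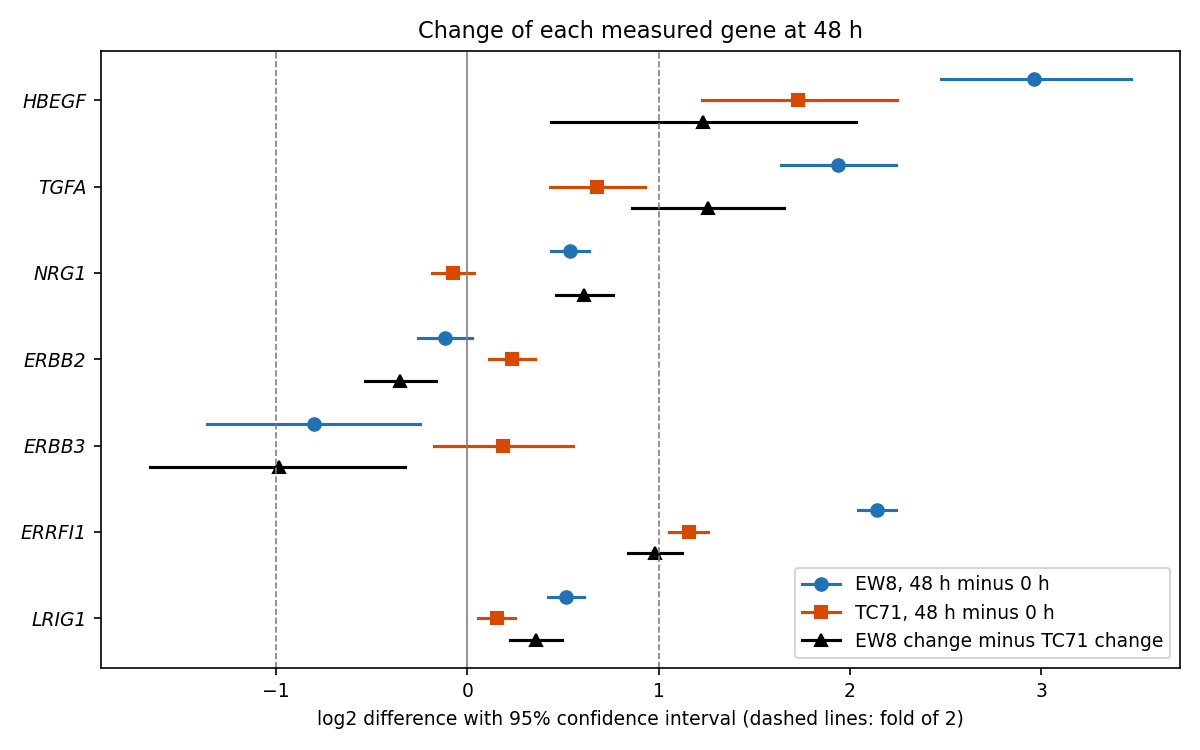
Log2 fold change at 48 h against 0 h for the 7 detected genes in EW8 (circles) and TC71 (squares), and the EW8 change minus the TC71 change (triangles), with 95% confidence intervals from edgeR and dashed lines at a 2-fold difference. The estimates of HBEGF and ERRFI1 lie beyond 2-fold in both lines and that of TGFA in EW8, and those of NRG1, ERBB2, ERBB3 and LRIG1 lie inside the 2-fold limits in both.

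The change of each gene was compared between the lines with an interaction term. All 7 genes passed on adjusted p alone, beside 48.1% of all genes tested. With the fold threshold, the change was larger in EW8 for 2 of 7 (HBEGF and TGFA), against 7.28% of all genes, and smaller in EW8 for 0, against 0.981% (1 gene, ERBB3, with DESeq2). For HBEGF the difference between the log2 fold changes was 1.23 (95% confidence interval 0.44 to 2.03, adjusted p = 0.00925), and without the third EW8 library labelled 0 h it was 1.88 (adjusted p = 0.00104). Without the second EW8 library labelled 0 h it lay at the 2-fold threshold, and the highest adjusted p over the alternatives was 0.0428. For TGFA it was 1.26 (adjusted p = 1.9e-06).

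ERRFI1 lay just below the fold threshold, with a difference of 0.98 (95% confidence interval 0.84 to 1.12, adjusted p = 1.45e-13), as did ERBB3 in the other direction, with -0.99 (-1.66 to -0.33, adjusted p = 0.0122). Smaller differences were found for NRG1 (0.61, adjusted p = 1.81e-08), LRIG1 (0.36, adjusted p = 2.65e-05) and ERBB2 (-0.35, adjusted p = 0.00166). Among the other receptors and ligands tested, the difference was 0.25 for the receptor ERBB4 (adjusted p = 0.0986) and -0.26 for the ligand NRG4 (adjusted p = 0.329), neither of which passed, and 0.91 for EGF (adjusted p = 1.8e-09). The comparison is of 1 derivative of each line and cannot be extended to Ewing sarcoma lines at large.

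At 0 h, 0 of the 7 genes were called higher in EW8 than in TC71, against 4.77% of all genes tested, and 1, TGFA, was lower, against 11.9%. TGFA was lower in EW8 by a log2 fold change of -1.16 (SE 0.16, adjusted p = 6.89e-08), or 2.23-fold. Below the fold threshold, NRG1 (0.76, adjusted p = 9.63e-15) and LRIG1 (0.59, adjusted p = 4.03e-13) were higher in EW8, and ERBB2 (-0.84, adjusted p = 1.6e-13) and ERBB3 (-0.72, adjusted p = 0.00306) were higher in TC71. HBEGF (-0.32, 95% confidence interval -1.03 to 0.39, adjusted p = 0.431) and ERRFI1 (0.06, -0.05 to 0.17, adjusted p = 0.311) did not pass, and both overlapped between the lines. For HBEGF this rested on the third EW8 library, without which the value was -0.98 (adjusted p = 0.0493), and the sign for ERRFI1 turned with the scaling, to -0.02 with upper-quartile factors and -0.07 with total counts alone.

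Levels of different genes were compared per kilobase of the canonical transcript (CPM per kb). In both lines at 0 h the order within the group was LRIG1, ERRFI1, ERBB2, NRG1, TGFA, ERBB3 and HBEGF. In EW8, LRIG1 was at 23.4 and ERRFI1 at 14.6 CPM per kb, followed by ERBB2 at 7.69, NRG1 at 4.07 and TGFA at 0.482. ERBB3 (0.199) and HBEGF (0.198) were last and overlapped. In TC71, LRIG1 was at 15.5, ERRFI1 at 14.0 and ERBB2 at 13.7 CPM per kb, with the ranges of ERRFI1 and ERBB2 overlapping, and ERBB3 (0.325) and HBEGF (0.275) again overlapped.

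At 48 h, ERRFI1 led in both lines, at 64.4 CPM per kb in EW8 and 31.2 in TC71, above LRIG1 at 33.4 and 17.3. ERBB2 (7.06 and 16.1), NRG1 (5.91 and 2.29), TGFA (1.84 and 1.71), HBEGF (1.71 and 0.915) and ERBB3 (0.115 and 0.375) followed. TGFA and HBEGF overlapped in EW8, and no other neighbours in the order did at this time. The order of neighbours depended on the length used: with the length of all merged exons, HBEGF was above ERBB3 at 0 h in both lines, NRG1 above ERBB2 in EW8 at 48 h, and TGFA above NRG1 in TC71 at 48 h.

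**Figure D3:**
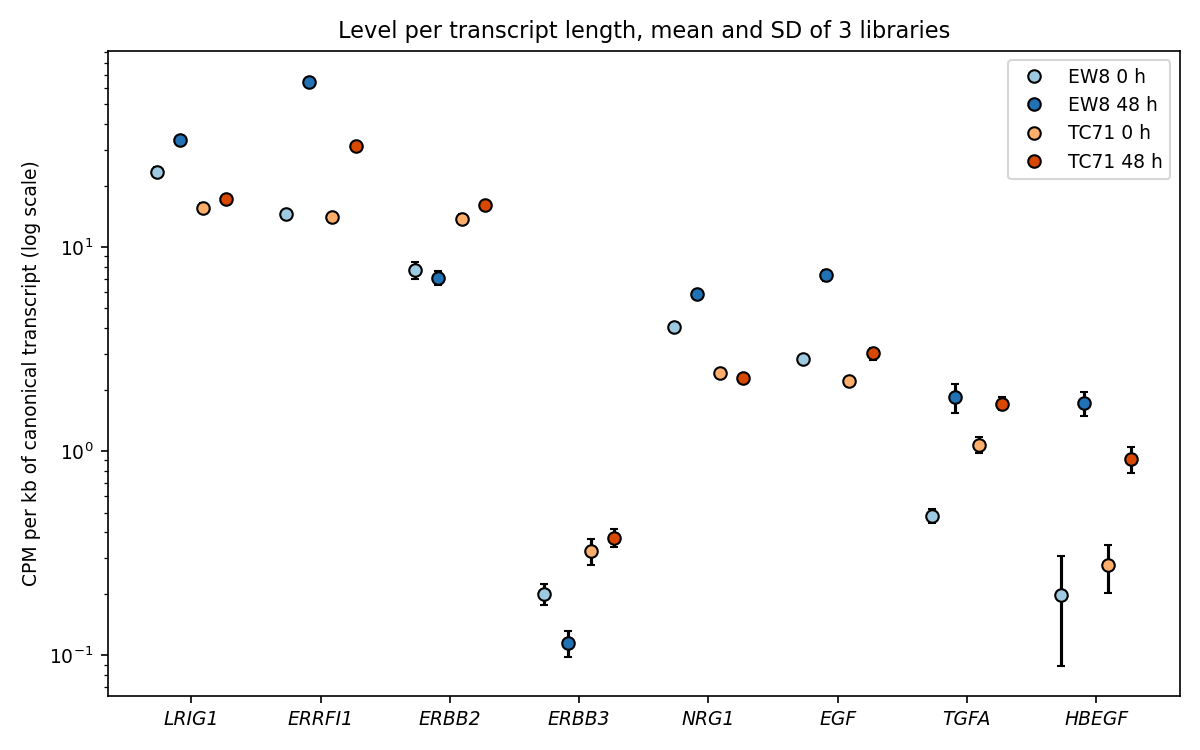
Level of the 7 detected genes and of EGF in CPM per kb of the canonical transcript, on a log axis, with a point at the mean of each of the 4 groups and bars of 1 SD (n = 3). ERRFI1 lies below LRIG1 at 0 h and above it at 48 h in both lines, and HBEGF lies above ERBB3 at 48 h.

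Ratios within a library need no scaling between libraries. The ratio of ERRFI1 to LRIG1 per kb was 0.568 to 0.666 in the EW8 libraries labelled 0 h and 1.88 to 1.98 in those labelled 48 h. In TC71 it was 0.845 to 0.995 and 1.72 to 1.86. The ranges did not overlap between the times in either line. The 0 h ratios in TC71 lie close to 1, and the strand uncertainty of LRIG1 given above applies to them.

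The ratio of ERBB2 to ERBB3 per kb was 35.1 to 41.4 at 0 h and 59.4 to 66.9 at 48 h in EW8, without overlap. In TC71 it was 35.2 to 50.7 and 36.6 to 47.2, and the groups overlapped. Among the ligands, the ratio of TGFA to HBEGF was 1.40 to 3.90 at 0 h and 1.03 to 1.12 at 48 h in EW8, and 3.20 to 5.94 and 1.58 to 2.20 in TC71. The ratio of NRG1 to TGFA was 7.71 to 9.19 at 0 h and 2.75 to 3.82 at 48 h in EW8, and 2.06 to 2.54 and 1.24 to 1.47 in TC71. With this length NRG1 was above TGFA and TGFA above HBEGF in every library, and with merged exons the mean of TGFA was above that of NRG1 in TC71 at 48 h.

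The rest of the pathway was described with a list of 55 other genes, chosen by function, of which 51 had a row and 47 passed the filter on low counts. In EW8, 6 of 47 were upregulated and 0 downregulated in edgeR, and 21 were higher and 12 lower on adjusted p alone, which 68.6% of all genes passed. In TC71, 2 of 47 were upregulated and 0 downregulated, and 13 were higher and 8 lower on adjusted p alone, which 42.1% of all genes passed. The shares among all genes tested were 13.9% up and 3.35% down for EW8 and 3.26% up and 0.854% down for TC71, so the counts of the list are near the background. The median log2 fold change of the list was 0.10 in EW8 and 0.04 in TC71.

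Of the 6 other ligands, BTC and NRG2 had no row. EPGN and NRG3 had no more than 8 counts in any library and were not tested. EPGN counts in EW8 were 3, 0 and 1 at 0 h and 2, 8 and 8 at 48 h, which overlapped, and NRG3 had 1 count or none in every EW8 library.

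EGF itself, the ligand that gives the family its name, was detected and upregulated in EW8. Its level was 17.7, 18.2 and 18.1 CPM at 0 h and 45.0, 44.6 and 49.7 CPM at 48 h. The groups were well apart, and the log2 fold change was 1.37 (SE 0.07, adjusted p = 3.69e-19). In TC71, EGF was at 13.7, 14.0 and 14.4 CPM at 0 h and 17.8, 20.1 and 19.9 CPM at 48 h, a log2 fold change of 0.46 (SE 0.07, adjusted p = 3.45e-06) below the fold threshold. Per kb of the canonical transcript, EGF was at 7.27 CPM in EW8 at 48 h, above HBEGF, TGFA and NRG1. NRG4, a ligand of ERBB4, had a log2 fold change of -0.57 in EW8 (adjusted p = 0.00107), and its TC71 value of -0.31 did not pass (adjusted p = 0.0987). ERBB4, the other receptor of neuregulins, had 0.42 in EW8 (adjusted p = 7.92e-05), below the fold threshold, while its TC71 value of 0.16 did not pass (adjusted p = 0.163).

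Of 7 sheddases and partners tested, 1 was upregulated in each line, beside 13.9% of all genes in EW8 and 3.26% in TC71, and it was RHBDF1 in both. RHBDF1 encodes iRhom1, an inactive rhomboid protein that binds the sheddase ADAM17. The EW8 levels were 1.14, 1.38 and 0.946 CPM at 0 h and 14.9, 13.1 and 17.9 CPM at 48 h, and the log2 fold change of 3.78 (SE 0.16, adjusted p = 5.29e-20) was the largest in the list. In TC71 it was at 1.86, 2.16 and 1.24 CPM at 0 h and at 4.96, 4.10 and 4.70 CPM at 48 h. The TC71 groups did not overlap, with a log2 fold change of 1.40 (SE 0.17, adjusted p = 6.04e-08). ADAM17, the main sheddase of HBEGF and TGFA, was chosen after its values were seen and stayed below the fold threshold at 0.83 on the log2 scale in EW8 (adjusted p = 7.97e-16) and, for TC71, at 0.30 (adjusted p = 1.99e-05). On adjusted p alone, 3 of the 7 were higher and 2 lower in each line, beside 68.6% of all genes in EW8 and 42.1% in TC71. The lower 2 were ADAM10 (-0.34 in EW8 and -0.18 in TC71) and RHBDF2 (-0.29 and -0.32).

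Of 11 negative regulators tested, 2 were upregulated in EW8 (13.9% of all genes) and 0 in TC71 (3.26%). On adjusted p alone, 7 passed in EW8 (68.6% of all genes) and 2 in TC71 (42.1%), all of them higher at 48 h. CBLB, a ubiquitin ligase that targets active receptors, was at 21.8, 20.3 and 20.0 CPM at 0 h in EW8 and at 44.9, 47.0 and 49.5 CPM at 48 h (log2 fold change 1.19, adjusted p = 6.26e-18). In TC71 its log2 fold change was 0.15 (adjusted p = 0.078). SOCS4, a suppressor of cytokine signalling, lay at the threshold, its log2 fold change in EW8 being 1.01 (adjusted p = 6.79e-18), and was below 2-fold in 8 of 22 alternative analyses, to no less than 0.94. In TC71 it was 0.27 (adjusted p = 0.00014).

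Of 20 adaptors and effectors, 2 were upregulated in EW8 and 1 in TC71, shares near the 13.9% and 3.26% of all genes. GAB2, a docking protein downstream of receptors, was upregulated in both. The EW8 libraries were at 2.37, 3.55 and 2.65 CPM at 0 h and at 15.7, 15.2 and 14.9 CPM at 48 h (log2 fold change 2.45, SE 0.12, adjusted p = 1.91e-18). In TC71 it was at 1.86, 1.72 and 1.99 CPM at 0 h and at 6.37, 4.85 and 6.28 CPM at 48 h (log2 fold change 1.65, SE 0.15, adjusted p = 5.79e-11). BRAF, a kinase of the MAP kinase cascade, had a log2 fold change of 1.03 in EW8 (adjusted p = 3.72e-18), which was below 2-fold in 3 of 22 alternatives. The TC71 value was 0.27 (adjusted p = 0.000315). Of 6 trafficking genes tested, 0 were called in either line. On adjusted p alone, 3 passed in EW8, beside 68.6% of all genes, and 2 in TC71, beside 42.1%.

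**Figure D4:**
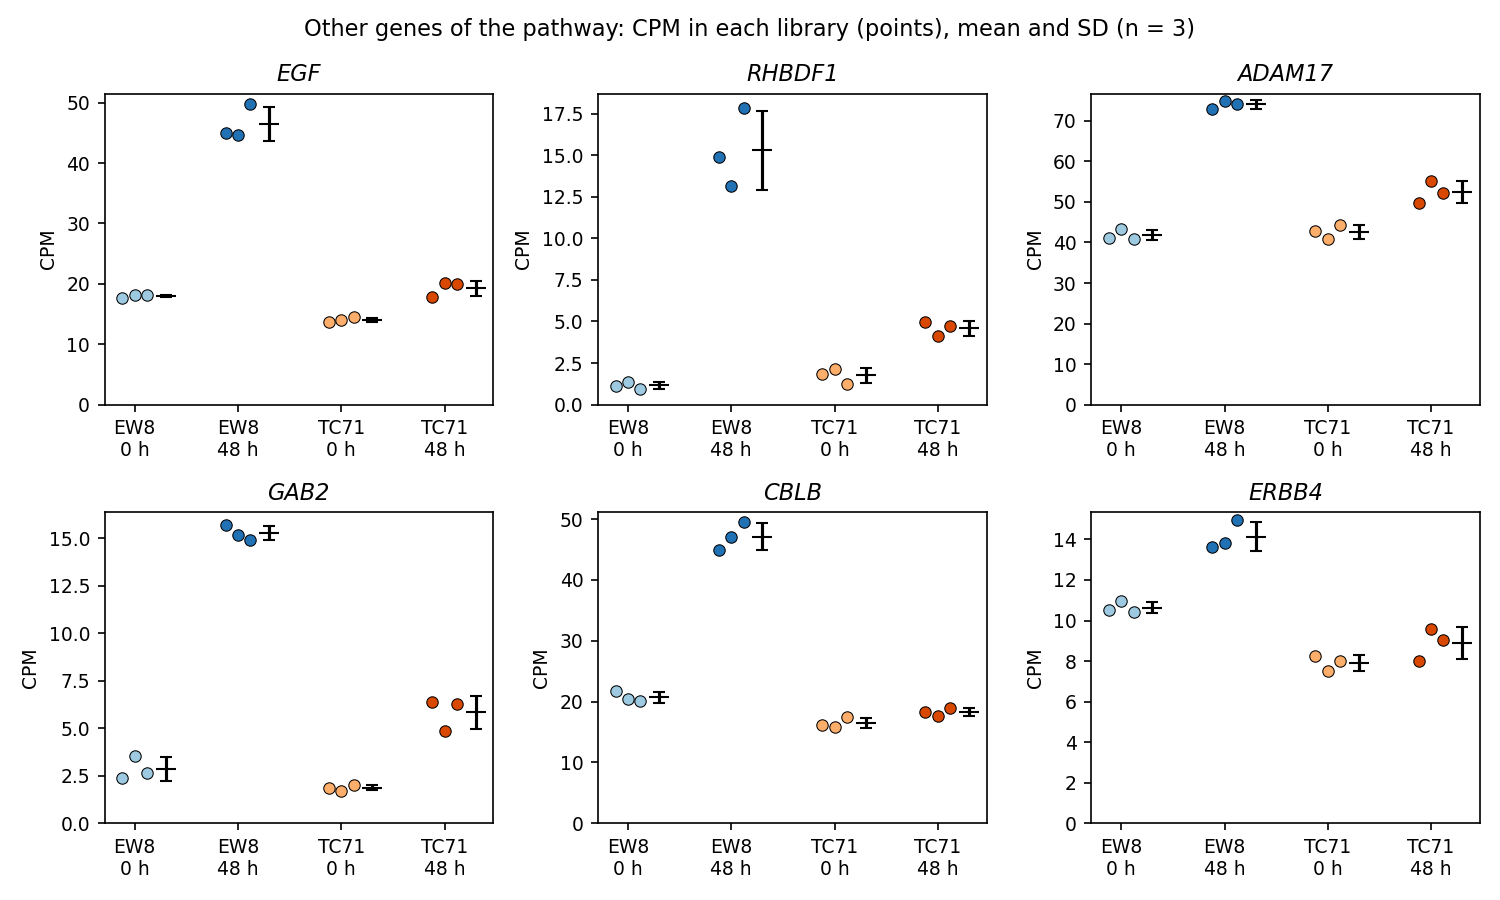
Level in CPM, on linear axes that start at 0, of EGF, RHBDF1, ADAM17, GAB2, CBLB and ERBB4, with 1 point per library and, beside them, the mean and SD of each group (n = 3). RHBDF1 and GAB2 at 48 h lie above 0 h without overlap in both lines, and CBLB separates clearly in EW8 and little in TC71.

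For the 2 genes upregulated in both lines, the genes with the most similar pattern over the 12 libraries were found among 13502 other genes, as the root mean square difference of log2 CPM after centring each gene on its own mean. For HBEGF they were AC093673.1 (0.295), PLK3 (0.341) and SERTAD1 (0.345). For ERRFI1 they were ZFP36L1 (0.119), GPR174 (0.123) and TRIM38 (0.125). The distances for ERRFI1 were smaller than those for HBEGF, which had 5 to 92 counts per library against 760 to 4134 for ERRFI1. The part of counting noise in this was not tested.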

How the data were processed

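RNA was isolated and libraries were made with a stranded kit for polyadenylated RNA. Per the labels, the submitters' processing notes name FastQC, STAR and the genome build hg38, and the counting tool, its annotation and its use of strand are not given in the sources used here. The deposited table holds raw read counts per gene, and these counts were used as deposited. The counts of 12 libraries (3 per line and time) were scaled with TMM factors, genes were filtered with filterByExpr (minimum count 10), and 16515 genes were fitted with edgeR 4.0.16 in R 4.3.3 (quasi-likelihood test, 4 groups, no replicate block, Benjamini-Hochberg adjustment over all genes tested). Levels are CPM of TMM-scaled libraries. The steps were tested on simulated data. Replicates of the same group differed by more than counting noise (chi-square per gene 1.98 to 9.16), so none was counted as a copy of another. Intervals cover the spread between libraries. DESeq2 1.42.0 and the other alternatives are given in the closing section.

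The genes of the group, the pathway list, the markers and the rules were chosen with earlier results of these data known. The named genes were all genes of the group, RRM1, every other ligand and receptor of the family, and the other listed genes called in at least 1 line. Genes that share exon bases with the group were added by their overlap, and ADAM17, ADAM10, RHBDF2 and the single markers after their values were seen. Loci and lengths are from GENCODE release 44, which matched 19943 of the 20771 identifiers. No protein sequence was used here.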

Additional observations from a re-analysis of the deposited data

Results flagged for a closer look

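The change from 0 h to 48 h differed between EW8 and TC71 by the test of the interaction (adjusted p below 0.05 in edgeR) for all 7 detected genes of the group and for 21 of 47 genes of the pathway list, and the cause was not tested. Values are given for the 7 genes and for the 6 pathway genes upregulated in EW8, and they are the EW8 log2 fold change minus that of TC71. Among the ligands they were 1.23 for HBEGF, 1.26 for TGFA, 0.61 for NRG1 and 0.91 for EGF. For the receptors they were -0.35 for ERBB2 and -0.99 for ERBB3. For the inhibitors they were 0.98 for ERRFI1, 0.36 for LRIG1, 1.04 for CBLB and 0.74 for SOCS4. For the others they were 2.38 for RHBDF1, 0.80 for GAB2 and 0.76 for BRAF. Since 48.1% of all genes tested passed the same test on adjusted p alone, such a difference was common in these libraries.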

How the results depend on the processing

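Of 260 recomputed counts, 238 stayed within 1.5 times the reported one, and of 994 recomputed single-gene values, 945 kept their direction and their side of the thresholds, 11 lost the call, 35 gained it and 3 changed sign. The alternatives include adjusted p alone, with no fold threshold, under which genes that had passed only on adjusted p gain the call by construction. The sign changes were ERBB2 in EW8 (0.0087, total counts alone) and ERRFI1 between the lines at 0 h (-0.019 with upper-quartile factors and -0.073 with total counts alone). Total counts alone moved the median of all genes by 0.13 in EW8 and by -0.13 between the lines at 0 h, and the other scalings by less than 0.1. On adjusted p alone, which 68.6% of all genes passed in EW8, 42.1% in TC71 and 48.1% for the difference, 5 genes of the group were higher and 1 lower in EW8, 5 were higher in TC71, and 5 had a larger and 2 a smaller change in EW8. The pathway list then had 21 higher and 12 lower in EW8 and 13 and 8 in TC71. Requiring 10 counts in every library removed HBEGF by construction and left 1 gene upregulated in TC71 and 1 with a larger change in EW8.

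ERBB3 lay at the threshold: DESeq2, no filter on low counts and the minimum of 10 counts each gave 1 gene with a smaller change in EW8, and leaving out 1 library gave 0 to 1. It was 1 without the first EW8 or first TC71 library labelled 0 h, the first or the second EW8 library labelled 48 h, or the first or the third TC71 library labelled 48 h, where the ERBB3 value was between -1.12 and -1.01. The ERRFI1 difference passed 2-fold without the third EW8 or the second TC71 library labelled 0 h, without the first EW8 or the third TC71 library labelled 48 h, or with total counts alone, at up to 1.06. The same-numbered libraries did not deviate together (correlations -0.138 to -0.015), and a replicate block changed no count: 3 and 0 in EW8, 2 and 0 in TC71, 2 and 0 for the difference, 0 and 1 at 0 h, and 6 and 0 and 2 and 0 for the pathway list. Among the detected genes of the group, HBEGF and ERBB3 had the fewest counts in every library, and the part of depth in their results was not tested.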
